A study of Mus musculus with 18 samples.

Results

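Chromatin that had been primed with CpG was compared with chromatin primed with polyI:C when both were then exposed to lipopolysaccharide (LPS), to ask whether the first ligand still showed in the regions that were open after the same second ligand. The comparison used 4 of the 18 ATAC-seq libraries in the series, the 2 labelled CL (CpG, then LPS) and the 2 labelled PL (polyI:C, then LPS), and all 53796 regions of the deposited table. ATAC-seq inserts sequencing adapters into accessible DNA with a transposase, so that the reads in a region measure how open it was. All cells were bone marrow-derived macrophages (BMDMs) of wildtype C57BL/6 mice aged 6 to 12 weeks, grown with M-CSF at 20 ng/mL and replated on day 7. Cells of CL received CpG at 100 nM for 4 hours and cells of PL received polyI:C at 1 µg/mL for 4 hours, after which the medium was replaced and LPS at 1 ng/mL was added for 4 hours. The series has 9 groups of 2 libraries. The other 7 were CT and PT (CpG or polyI:C, then TNF at 10 ng/mL), MC and MP (medium first, then CpG or polyI:C), ML and MT (medium first, then LPS or TNF), and MM (medium both times). In MC and MP the ligand was therefore the last thing added, whereas in CL and PL it had been replaced 4 hours before the end. CpG and polyI:C differ in kind and in unit of dose, so their doses were not matched, and the labels do not say whether the 2 libraries of a group came from separate mice or cultures. P-values therefore measure the spread between libraries, which may be technical.

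CpG DNA is sensed in endosomes by TLR9, which signals through the adaptor MyD88 to NF-kB and AP-1 and to inflammatory genes. PolyI:C, a double-stranded RNA mimic, is sensed by TLR3, which signals through TRIF, and by cytosolic RNA sensors, and it is a strong inducer of type I interferon and of interferon-stimulated genes. LPS is sensed by TLR4, which uses both MyD88 and TRIF. Macrophages that have met one ligand are known to respond to a later one differently, and regions that stay open after the first ligand are one form such a memory can take.

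Promoters of 5 genes that the results turn on show what the compared regions look like in sequence. Each is the 250 bases before a start of the gene in the RefSeq table (build GRCm38.p6), written 5′ to 3′ on the gene's strand. For Ifit1bl1 that start is internal, since its region lay inside the annotated gene, 5421 bases from the nearest gene end. Capitals mark matches, on either strand, to an interferon-stimulated response element (ISRE, GAAA and GAAA with any 2 bases between), an AP-1 site (TGANTCA), an NF-kB site (GGGA and TTCC with any 1 or 2 bases between), a PU.1 site (GAGGAAG) or a C/EBP site (TTGCNNAA). A match is a description of the letters and not evidence of binding. The first pair lay in regions that were more open in PL. They are Tlr9, the CpG receptor itself (chr9:106222348-106222597, plus strand, with an AP-1 and a PU.1 match), and Ifit1bl1, an antiviral gene of the Ifit family (chr19:34601969-34602218, minus strand, with an ISRE and a PU.1 match).
Tlr9: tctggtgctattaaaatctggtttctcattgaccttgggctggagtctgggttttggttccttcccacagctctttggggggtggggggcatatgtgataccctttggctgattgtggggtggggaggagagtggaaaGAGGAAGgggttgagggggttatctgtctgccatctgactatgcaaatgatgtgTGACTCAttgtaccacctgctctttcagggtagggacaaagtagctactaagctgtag
Ifit1bl1: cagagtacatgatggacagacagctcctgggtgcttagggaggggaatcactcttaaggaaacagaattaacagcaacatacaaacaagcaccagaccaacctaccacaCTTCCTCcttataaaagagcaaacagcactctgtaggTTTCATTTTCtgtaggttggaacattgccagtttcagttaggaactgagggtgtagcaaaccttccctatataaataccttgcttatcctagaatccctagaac
The second pair lay in regions that were more open in CL. They are S100a8, a subunit of the antimicrobial protein calprotectin (chr3:90668821-90669070, plus strand), and Nrp1, a semaphorin and VEGF co-receptor (chr8:128358823-128359072, plus strand), with 1 PU.1 match each.
S100a8: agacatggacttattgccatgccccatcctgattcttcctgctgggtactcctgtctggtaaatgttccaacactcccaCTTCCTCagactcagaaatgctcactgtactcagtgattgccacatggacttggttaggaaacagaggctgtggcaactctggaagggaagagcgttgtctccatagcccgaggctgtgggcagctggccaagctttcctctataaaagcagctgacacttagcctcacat
Nrp1: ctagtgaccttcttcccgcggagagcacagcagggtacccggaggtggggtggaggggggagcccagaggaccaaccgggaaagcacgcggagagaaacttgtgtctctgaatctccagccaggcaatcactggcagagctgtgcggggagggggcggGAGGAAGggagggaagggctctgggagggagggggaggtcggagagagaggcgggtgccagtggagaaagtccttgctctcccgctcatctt
The last is Cxcl10, an interferon-inducible chemokine (chr5:92348890-92349139, minus strand). It holds 1 ISRE, 1 AP-1 and 2 NF-kB matches, and its region was not called different between CL and PL.
Cxcl10: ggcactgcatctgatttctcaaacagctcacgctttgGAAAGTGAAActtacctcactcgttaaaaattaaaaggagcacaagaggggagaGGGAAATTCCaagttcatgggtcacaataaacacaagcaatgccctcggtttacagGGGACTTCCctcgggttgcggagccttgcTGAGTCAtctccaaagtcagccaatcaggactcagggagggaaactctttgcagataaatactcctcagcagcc

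The 4 libraries held 3901543 (CL replicate 1), 4996158 (CL replicate 2), 4577040 (PL replicate 1) and 4520458 (PL replicate 2) reads in regions, within the range of 3141641 to 5986835 over all 18. Replicates correlated at 0.958 in CL and 0.959 in PL. The PT libraries stood apart, with the lowest replicate correlation (0.919) and a chi-square of 2.71 per region against at most 1.60 in the other groups. Between the 2 MP libraries no difference beyond sampling was found (chi-square 1.00 per region, p = 0.286 by a chi-square test over 53710 regions), so they may be 1 library. Results that use MP are therefore also given with its 2 libraries counted as 1 sample. All 10 macrophage markers had regions, 70 in all, of which 3 were called higher in CL and 0 higher in PL. Their log2 levels summed to 271 and 270 in the CL libraries and to 269 and 264 in the PL libraries. Some defining markers of other cells had no region, such as Cd3e and Cd8a of T cells, Pax5 of B cells, Elane of neutrophils, Clec9a of dendritic cells, Gata1 of erythroid cells and Col1a1 of fibroblasts, while others did, and their values are given with the gene lists. These are bulk libraries, so a change in how many cells had a region open and a change in every cell cannot be told apart.

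Many regions differed, about equally in the 2 directions as the values were deposited. Of 53796 regions, 5075 (9.43%) were called at an adjusted p under 0.05 by limma with Benjamini-Hochberg adjustment over all regions. Of these, 2489 (4.63% of all regions) were more open in CL and 2586 (4.81%) were more open in PL. This balance moved with scaling. After the libraries were shifted to one median, 5169 regions were called, and 40.6% of them were higher in CL. The median called difference was 0.79 on the log2 scale in the first direction and -0.82 in the second. Differences of at least 2-fold were called at 616 regions in CL and 681 in PL, and of at least 4-fold at 24 and 8. The 2 CL libraries lay above the 2 PL libraries in 2486 of the 2489 regions, against 28.2% of all regions, and the PL libraries lay above in 2585 of the 2586, against 26.3%. Called regions were near 1648 genes for CL and 1715 genes for PL, and 282 genes had both kinds. With 1 library left out, the count fell to 1911 (without CL replicate 1), 2084 (without CL replicate 2), 2241 (without PL replicate 1) and 1784 (without PL replicate 2), in fits that assume the lone library varies like the other groups.

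**Figure D1:**
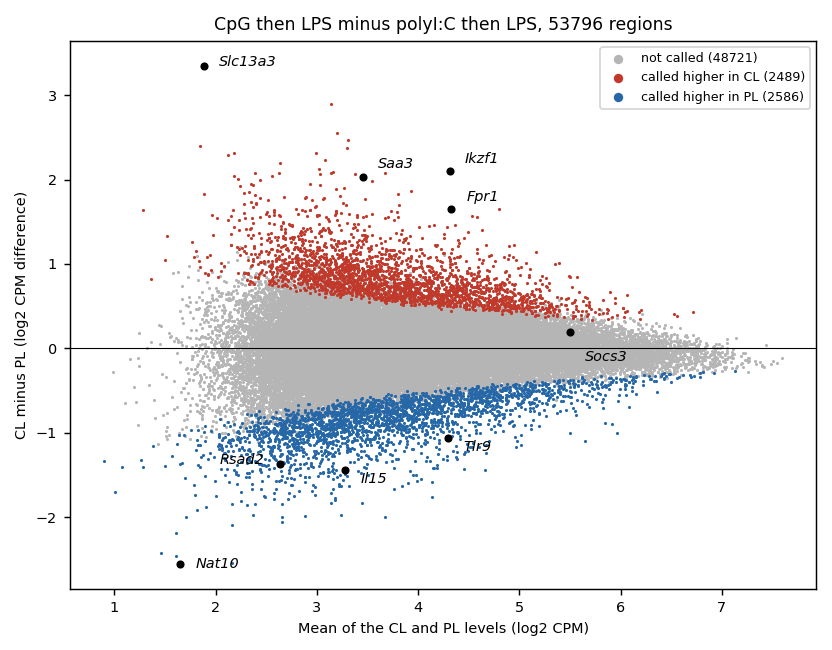
Each point is 1 of 53796 regions, with the mean of its CL and PL levels (log2 CPM) on the x axis and the CL minus PL difference (log2 CPM) on the y axis. Red and blue points were called higher in CL (2489) and in PL (2586), grey points were not called, and black points are 9 regions described in the text.

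Regions near genes of the antimicrobial and acute-phase response had median levels of 4.04 and 4.10 in the CL libraries and 3.98 and 3.92 in the PL libraries. Over all regions the group medians were 3.77 in CL and 3.74 in PL. Called regions of the antimicrobial and acute-phase genes leaned toward CpG. Among 109 regions of 22 such effector genes, 13 (11.9%) were called higher in CL and 3 (2.75%) higher in PL, against 4.63% and 4.81% of all regions. The median difference over the list was 0.13, and over all regions 0.012. Saa3, an acute-phase serum amyloid A protein, had a region within 1 kb of an end of the gene (chr7:46712169-46712670) at log2 levels of 4.44 and 4.50 in the CL libraries and 2.48 and 2.39 in the PL libraries. The groups did not overlap, and the difference was 2.03 ± 0.27 (SE; limma, adjusted p = 5.42e-06). In ML it stood at 1.9, so that CL lay above LPS alone by 2.57 and PL by 0.53, the latter not called (limma adjusted p = 0.144). Fpr1, a receptor for bacterial formyl peptides, had an intragenic region (chr17:17878339-17878840) at 5.05 and 5.25 in CL and 3.46 and 3.54 in PL. That difference was 1.65 ± 0.22 (SE; limma, adjusted p = 6.37e-06). Both genes had 3 regions called higher in CL and 0 higher in PL. Marco, a scavenger receptor for bacteria, had a region near its end (chr1:120473643-120474144) whose levels were 4.16 and 3.83 in CL, and 2.74 and 1.38 in PL (difference 1.94, limma adjusted p = 0.000423). Its PL libraries lay far apart, and without PL replicate 2 the adjusted p from limma was 0.0666. The exceptions were single regions near Fpr2, Acod1 and Ptgs2, with differences of -0.62, -0.89 and -0.66. Without CL replicate 1 the 13 regions became 8 and the 3 became 1, without PL replicate 1 the 13 became 7, and without PL replicate 2 the 3 became 0.

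**Figure D2:**
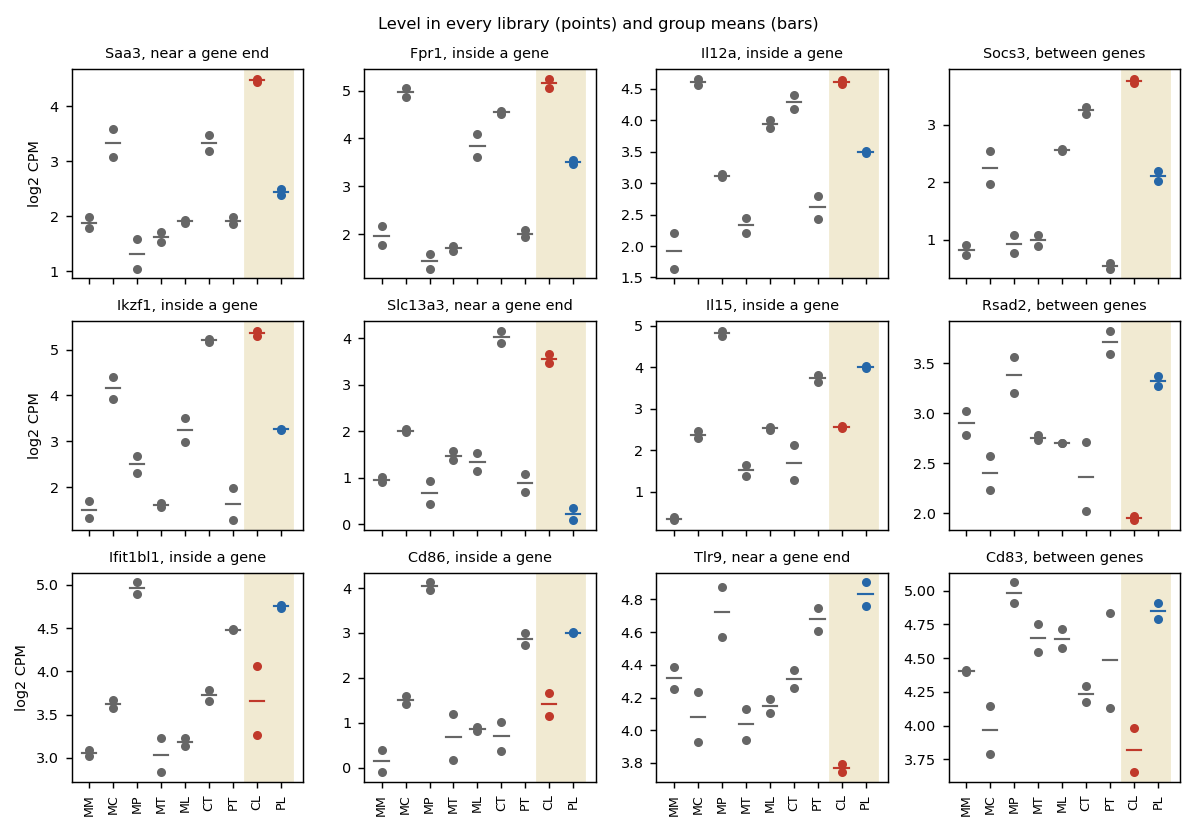
Log2 CPM (y axis) of 12 regions in every library (points) and group mean (bars), by treatment group (x axis). The shaded CL (red) and PL (blue) libraries do not overlap in any panel, and the other groups are grey.

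Cytokine genes showed the same lean, with 1 exception. Of 139 regions near 30 cytokine and chemokine genes, 14 (10.1%), spread over 11 genes, were higher in CL. Another 5 (3.60%) were higher in PL, and all 5 lay near a single gene, Il15. The shares of all regions were 4.63% and 4.81%. The list's median difference was 0.16. Il12a encodes the p35 subunit of IL-12. Its intragenic region (chr3:68693367-68693868) had levels of 4.65 and 4.57 in CL and 3.52 and 3.48 in PL, a difference of 1.11 ± 0.21 (SE; limma, adjusted p = 0.000677). Il12b, for the p40 subunit, had a region by its end (chr11:44398834-44399335) at 4.53 and 4.38 in CL and 3.57 and 3.43 in PL, a difference of 0.95 ± 0.18 (SE; limma, adjusted p = 0.000842). In neither case did the groups overlap. Il15, an interferon-inducible cytokine that sustains NK and memory T cells, went the other way. Its leading region, inside the gene at chr8:82372821-82373322, stood at 2.58 and 2.54 in CL and 3.98 and 4.02 in PL, a difference of -1.44 ± 0.26 (SE; limma, adjusted p = 0.000411). At this region CL was level with LPS alone (2.53 in ML, 0.36 in MM), while PL lay 1.47 above ML. Without 1 library the 14 regions became 7 (without CL replicate 1), 6 (without CL replicate 2) and 6 (without PL replicate 2), and the 5 of Il15 became 2 to 4.

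Regions of interferon-stimulated genes had median levels of 3.74 and 3.61 in the CL libraries and 3.98 and 3.90 in the PL libraries. Over all regions the group medians were 3.77 in CL and 3.74 in PL. Called regions of interferon-stimulated genes leaned toward polyI:C. Of 177 regions near 44 such genes, 25 (14.1%), near 15 genes, were higher in PL and 2 (1.13%) were higher in CL. The shares of all regions were 4.81% and 4.63%. The median difference of the list was -0.25, against 0.012 over all regions. Rsad2, which encodes the antiviral enzyme viperin, had 6 of its 13 regions higher in PL and 0 higher in CL. The leading one, between genes at chr12:26431930-26432431, stood at 1.97 and 1.93 in CL and 3.37 and 3.27 in PL, a difference of -1.37 ± 0.25 (SE; limma, adjusted p = 0.000427). The CL libraries here were below LPS alone (2.70, limma adjusted p = 0.033) and below medium (2.90, limma adjusted p = 0.00224). The PL libraries were above both, but neither difference was called (0.62 and 0.42, limma adjusted p = 0.0636 and 0.182). The Ifit1bl1 promoter region stood at 4.06 and 3.26 in CL and 4.77 and 4.73 in PL, a difference of -1.09 ± 0.20 (SE; limma, adjusted p = 0.000511). Its CL libraries were 0.80 apart on the log2 scale, and without CL replicate 2 the adjusted p from limma was 0.0674. Herc6, the mouse ligase that attaches ISG15, had an intragenic region at 4.59 and 4.50 in CL and 5.27 and 5.28 in PL (difference -0.73 ± 0.14 (SE), limma adjusted p = 0.000573). Ifit2 had 3 regions higher in PL, and Tor3a, Trim25 and Trim30a had 2 each. The exceptions were single regions inside Usp18, which removes ISG15 from proteins (difference 0.87, limma adjusted p = 0.0193), and inside Gbp7, an interferon-inducible GTPase (1.37, limma adjusted p = 0.00556). Each of these 2 exceptions kept its call in only 1 of the 4 fits that left out a library. In those fits the 25 regions higher in PL became 10 (without CL replicate 1), 7 (without CL replicate 2), 7 (without PL replicate 1) and 8 (without PL replicate 2), with 0 or 1 higher in CL. Set beside LPS alone, 59 regions of the list were called higher in CL than in ML and 4 lower (10.5% and 6.42% of all regions), and 97 were higher in PL than in ML and 0 lower (14.3% and 9.98% of all regions). These last 2 comparisons share the ML libraries.

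Genes that make or carry the interferon signal showed no lean as a list. Over 124 regions of 19 genes for interferon production and signalling, 4 (3.23%) were higher in CL and 6 (4.84%) were higher in PL, close to the shares of all regions, with a median difference of -0.050. The receptor-associated kinases supplied 5 of the 6, with 3 regions of Jak1 and 1 each of Jak2 and Tyk2, and the transcription factor Irf5 supplied the other. The leading Jak1 region, between genes at chr4:101283889-101284390, stood at 3.68 and 3.26 in CL and 4.25 and 4.56 in PL (difference -0.93 ± 0.17 (SE), limma adjusted p = 0.000581). The Jak2 difference was -1.15 and that of Tyk2 was -0.82, but Jak2 kept its call in 1 and Tyk2 in 2 of the 4 fits with a library left out. On the CL side were single regions of the transcription factors Irf8 and Irf1, the receptor subunit Ifnar2 and the kinase Tbk1. The Irf8 region, inside the gene at chr8:120740971-120741472, stood at 3.77 and 3.61 in CL and at 1.78 and 2.45 in PL, a difference of 1.57 ± 0.25 (SE; limma, adjusted p = 9.47e-05). CL at this region was near LPS alone (3.58), and PL lay 1.47 below it. With 1 library left out, the 4 regions became 1 or 2 and the 6 became 3 to 5.

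Genes of the Toll-like receptors and their adaptors showed no excess of called regions. Of 156 regions of 27 receptor, adaptor and kinase genes, 6 (3.85%) were higher in CL and 4 (2.56%) were higher in PL. The shares of all regions were 4.63% and 4.81%. The region over the Tlr9 promoter (chr9:106222318-106222819) stood at 3.79 and 3.74 in CL and 4.76 and 4.90 in PL, a difference of -1.06 ± 0.16 (SE; limma, adjusted p = 5.38e-05). It is the CpG receptor gene, and both CL libraries lay below LPS alone (4.15) and medium (4.32) while both PL libraries lay above them. Of these differences, that of CL from LPS alone was not called (-0.38, limma adjusted p = 0.107). The most open regions of Tlr3, Tlr4, Ticam1 (the gene of TRIF) and Myd88 were not called, with differences of -0.25, -0.074, -0.099 and 0.018. Among other receptor gene regions, 1 of 11 at Tlr4 and 2 of 8 at Tlr2 were higher in CL, and 1 of 4 at Tlr1 was higher in PL. The kinase Map3k8 and the adaptor Tirap each had 1 region higher in CL, by 0.76 and 1.25. With 1 library left out the 6 became 3 to 5 and the 4 became 1 to 3.

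Subunits and feedback inhibitors of NF-kB had 21 of 215 regions (9.77%) higher in CL and 6 (2.79%) higher in PL. Over all regions the shares were 4.63% and 4.81%. The list's median difference was 0.12. Most of the CL side came from 5 genes, with 4 regions each of Irak3, which dampens TLR signalling, and Nfkbiz, 3 each of Socs3 and Nfkbia, the gene of the inhibitor IkB-alpha, and 2 of Atf3. Socs3, an inhibitor of cytokine receptor signalling, had a region between genes (chr11:117962149-117962650) at 3.79 and 3.72 in CL and 2.03 and 2.2 in PL, a difference of 1.65 ± 0.30 (SE; limma, adjusted p = 0.000492). Atf3, a repressor of inflammatory genes, had one at 4.79 and 4.77 in CL and 3.57 and 3.57 in PL (difference 1.21 ± 0.19 (SE), limma adjusted p = 5.95e-05). Nfkbiz, the gene of the nuclear factor IkB-zeta, had one at 3.77 and 4.00 in CL and 2.92 and 2.76 in PL (difference 1.04 ± 0.22 (SE), limma adjusted p = 0.00186). The groups overlapped at none of the 3. Socs1 differed in direction from Socs3, with 2 of its 5 regions higher in PL, led by one at 0.71 and 0.50 in CL and 1.58 and 2.26 in PL. That Socs1 call was kept in 1 of the 4 fits with a library left out. One distal region of Nfkbia was also higher in PL, by 1.52 on the log2 scale, and it too kept its call in 1 of the 4. Without 1 library the 21 regions became 8 (without CL replicate 1), 6 (without CL replicate 2), 12 (without PL replicate 1) and 7 (without PL replicate 2), and the 6 became 0 to 2. The smaller TNF receptor list had 5 of 62 regions (8.06%) higher in CL and 3 (4.84%) higher in PL, and Tnfrsf1b had 2 of each.

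AP-1, ATF and immediate early genes had 13 of 159 regions (8.18%) higher in CL, near 11 genes, and 5 (3.14%) higher in PL. Over all regions the shares were 4.63% and 4.81%. The list's median difference was 0.11. Batf, an AP-1 family factor, had an intragenic region at 4.26 and 3.94 in CL and 2.64 and 2.61 in PL, a difference of 1.48 ± 0.32 (SE; limma, adjusted p = 0.00242), and without CL replicate 1 its adjusted p from limma was 0.0626. Klf6, a zinc finger factor, had regions that went in opposite directions. The one at chr13:5828588-5829089 stood at 5.78 and 5.93 in CL and 4.72 and 4.99 in PL, and the one at chr13:5842801-5843302 stood at 0.71 and 1.01 in CL and 3.03 and 2.51 in PL. The differences were 1.00 ± 0.17 and -1.91 ± 0.31 (SE; limma, adjusted p = 0.000173 and 0.00011), and CL and PL overlapped at neither. Without 1 library the 13 regions became 5 to 7 and the 5 became 2 or 3, the fewest being 5 without PL replicate 2.

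Among macrophage lineage genes 28 of 239 regions (11.7%) were higher in CL and 4 (1.67%) were higher in PL, against 4.63% and 4.81% of all regions. Ikzf1, which encodes the haematopoietic factor Ikaros, supplied 8 of the 28 from its 18 regions, Zeb2 supplied 5 and Tfec 4. The list's median difference was 0.073. The leading Ikzf1 region, inside the gene at chr11:11744253-11744754, stood at 5.41 and 5.31 in CL and at 3.25 and 3.27 in PL, a difference of 2.10 ± 0.24 (SE; limma, adjusted p = 6.72e-07). PL at this region was level with LPS alone (3.25). At the Tfec region inside the gene (chr6:16883498-16883999), by contrast, CL was level with LPS alone (3.93) and PL lay 1.27 below it. That region stood at 4.04 and 4.00 in CL and 2.31 and 3.02 in PL (difference 1.35 ± 0.23 (SE), limma adjusted p = 0.000203). Without 1 library the 28 regions became 16 (without CL replicate 1), 15 (without CL replicate 2), 14 (without PL replicate 1) and 13 (without PL replicate 2), and the 4 became 0 to 3.

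Alternative activation genes, which mark macrophages of tissue repair, had 12 of 73 regions (16.4%) higher in CL, near 6 genes, and 0 higher in PL. Over all regions the shares were 4.63% and 4.81%. In this list, however, 4 regions were called higher in PL after quantile normalization and 3 after the libraries were shifted to one median. Nrp1 supplied 5 of the 12. Its promoter region, at chr8:128358891-128359392, stood at 3.99 and 4.14 in CL and 3.31 and 2.94 in PL (difference 0.94 ± 0.16 (SE), limma adjusted p = 0.000223). Both groups were below medium (5.16) and LPS alone (4.49) there. Mrc1, the mannose receptor, had a region at 3.53 and 3.83 in CL and 3.07 and 2.33 in PL (difference 0.98, limma adjusted p = 0.00175), again with LPS alone (3.87) and medium (4.06) higher. The Mrc1 call was lost without CL replicate 2 and without PL replicate 2. The 12 regions became 7, 5, 7 and 3 without CL replicate 1, CL replicate 2, PL replicate 1 and PL replicate 2. Lipid genes had 8 of 134 regions (5.97%) higher in CL and 3 (2.24%) higher in PL, against the same 4.63% and 4.81%. Insig1, which holds back cholesterol synthesis, supplied 3 of the 8, led by one between genes (chr5:28037574-28038075) at 4.76 and 4.86 in CL and 3.46 and 3.81 in PL (difference 1.17 ± 0.17 (SE), limma adjusted p = 2.85e-05). The 8 regions became 3, 4, 5 and 2 in the same 4 fits.

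Antigen presentation and costimulation genes leaned toward polyI:C, with a median difference of -0.066. Of 89 regions, 8 (8.99%), near 6 genes, were higher in PL and 3 (3.37%) higher in CL, against 4.81% and 4.63% of all regions. The 3 lay near Cd74, Icosl and Pdcd1lg2, and Cd74 and Pdcd1lg2 also had regions higher in PL. Cd86, a ligand that costimulates T cells, had an intragenic region (chr16:36602624-36603125) at 1.66 and 1.15 in CL and 3.00 and 3.02 in PL, a difference of -1.60 ± 0.35 (SE; limma, adjusted p = 0.00271). It lay at 0.15 in medium and at 0.86 after LPS alone. Without CL replicate 2 its adjusted p from limma was 0.0707. Cd83, a surface protein of mature antigen-presenting cells, had a region between genes (chr13:43765206-43765707) at 3.65 and 3.98 in CL and 4.91 and 4.79 in PL (difference -1.03 ± 0.18 (SE), limma adjusted p = 0.000279). Here PL was near LPS alone (4.64) and CL lay 0.83 below it. Genes listed as dendritic cell markers had 7 of 51 regions (13.7%) higher in PL and 2 (3.92%) higher in CL. They included Zbtb46, a factor of conventional dendritic cells (difference -0.91, limma adjusted p = 0.000948, and 0.0601 without CL replicate 1). The summed level of that list was 185 and 188 in the CL libraries and 190 and 190 in the PL libraries. Without 1 library the 8 antigen presentation regions became 4 to 7, the fewest without PL replicate 2, and the 7 dendritic cell regions became 2 (without CL replicate 1), 6, 3 (without PL replicate 1) and 2 (without PL replicate 2).

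Markers of other cell types also had regions that differed, in small lists. For comparison, 4.63% of all regions were called higher in CL and 4.81% higher in PL. Among T and NK cell markers 4 of 17 regions (23.5%) were higher in CL, near Gata3, Klrb1c and Lck, and 1 (5.88%), near Cd4, was higher in PL. Among neutrophil markers 3 of 19 (15.8%) were higher in CL, near S100a8, Csf3r and Mmp8, and 1 (5.26%), near Csf3r, was higher in PL. The region over the S100a8 promoter shown above stood at 4.69 and 4.63 in CL and 3.90 and 3.65 in PL (difference 0.89 ± 0.17 (SE), limma adjusted p = 0.000793). Among B cell markers 3 of 18 (16.7%) were higher in PL, near Ms4a1, Cr2 and Ebf1, and 0 were higher in CL. Summed levels in CL replicates 1 and 2 and PL replicates 1 and 2 were 68.1, 68.3, 65.3 and 65 for the T and NK cell list. They were 67.4, 68.2, 63.6 and 65.5 for neutrophils and 59.7, 58.6, 63.3 and 63.4 for B cells. The small lists of erythroid, megakaryocyte and mast cell markers (9 regions) and of fibroblast and endothelial markers (25 regions) had 2 regions higher in CL and 1 higher in PL each. With 1 library left out the 4 T and NK cell regions became 1 or 2, the 3 neutrophil regions 1 or 2 and the 3 B cell regions 0 or 1. The part of other cell types in the differences between CL and PL was not tested.

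**Figure D3:**
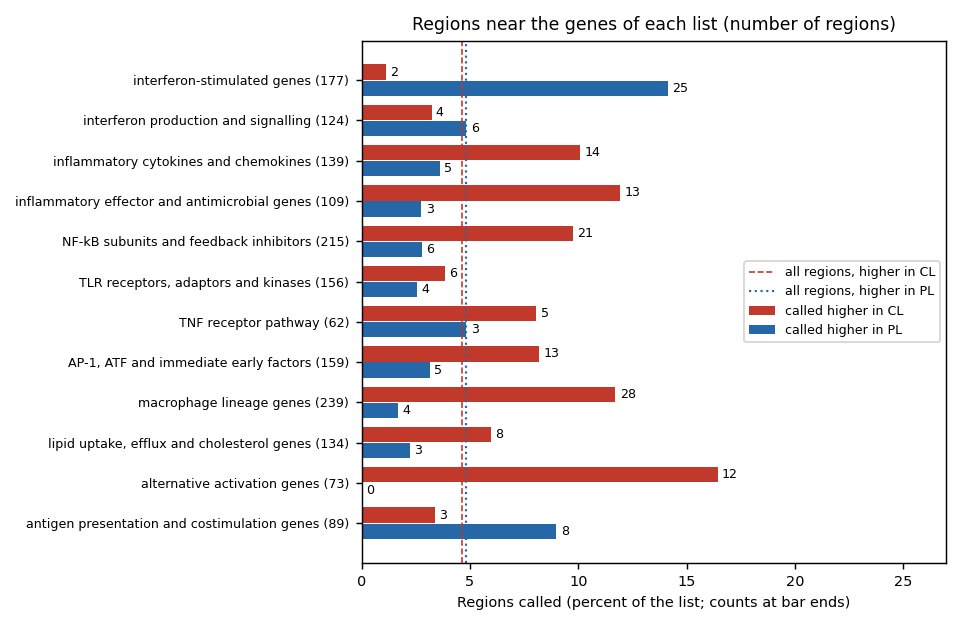
Share of each list's regions (x axis, percent) called higher in CL (red) and in PL (blue), with the count at each bar's end and the number of regions tested in brackets (y axis). The lists of cell type markers are not shown. The dashed and dotted lines mark 4.63% and 4.81%, the shares of all regions called higher in CL and in PL.

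The largest differences, ranked with 1 region per gene, lay mostly outside these lists. Regions without a gene within 50 kb, predicted genes and unnamed transcripts were left out of the ranking. The greatest of all was within 1 kb of a gene end at Slc13a3, a sodium-dependent dicarboxylate transporter (chr2:165473659-165474160). It stood at 3.47 and 3.66 in CL and 0.34 and 0.08 in PL, a difference of 3.35 ± 0.33 (SE; limma, adjusted p = 2.68e-08). With ML at 1.34, CL was 2.22 above and PL 1.13 below LPS alone. Svil, the gene of the actin-binding protein supervillin, had an intragenic region at 4.60 and 4.56 in CL and 2.43 and 0.96 in PL (difference 2.89). Gsr, the gene of glutathione reductase, had all 5 of its regions called higher in CL, led by one inside the gene (chr8:33655196-33655697) at 4.12 and 4.05 in CL and 2.03 and 1.89 in PL. That difference was 2.13 ± 0.33 (SE; limma, adjusted p = 5.95e-05). Regions near Rnf24, Usp25, Pax6, Gramd1b, Pik3r1, Vmn2r27 and Tpm4 made up the rest of the 10 largest, with differences from 2.23 to 2.55. Toward PL the largest of those ranked was at Nat10, an RNA acetyltransferase (near a gene end at chr2:103721749-103722250). It stood at 0.47 and 0.28 in CL and 3.00 and 2.85 in PL, a difference of -2.55 ± 0.37 (SE; limma, adjusted p = 2.2e-05). Grm5, Gucy1b2, Nid1, Fam172a, Phf21a, Terf2, Ctps2, Klf6 and Pkd1l1 followed, with differences from -2.55 to -1.88. These 20 regions kept their calls in each of the 4 fits with a library left out, and so did 50 of the 103 called regions named by the rule. At low levels the prior used for the deposited values understates such differences.

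By contrast, the most open region of most well-known response genes did not differ detectably between CL and PL. Of 26 such regions, 25 were not called, with differences between -0.31 and 0.36, and only that of Tlr9 was (3.85% of 26, against 9.43% of all regions). The Tnf region (chr17:35201892-35202393) stood at 5.05 and 5.26 in CL and 4.98 and 4.62 in PL, a difference of 0.36 with a 95% interval of 0.04 to 0.67 (limma, adjusted p = 0.14). The Cxcl10 promoter region stood at 5.03 and 5.06 in CL and 5.24 and 5.04 in PL (difference -0.097, 95% interval -0.39 to 0.19, limma adjusted p = 0.737). The Rsad2 region next to the gene end stood at 5.51 and 5.46 in CL and 5.70 and 5.62 in PL (difference -0.18, 95% interval -0.44 to 0.08, limma adjusted p = 0.428). Its distal region described above differed by -1.37. The most open Il12b region, between genes at chr11:44389981-44390482, stood at 6.05 and 6.11 in CL and 6.03 and 6.06 in PL (difference 0.031, 95% interval -0.21 to 0.27), while 2 of the gene's other regions were higher in CL. The intervals at Cxcl10, Rsad2 and Il12b lie within 0.44 of 0 on the log2 scale.

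The called regions lay away from gene ends more often than the table as a whole. Regions within 1 kb of a gene end made up 23% of all regions, 15.5% of those higher in CL (385) and 6.81% of those higher in PL (176). Regions inside genes made up 44.2%, 46.3% and 52.2% in the same order, and regions over 50 kb from any gene 9.21%, 11.4% and 12.5%. Promoters of the RefSeq table, each of 300 bases around a gene's start, were covered over at least 150 bases by 7551 regions, of which 180 were higher in CL and 61 higher in PL. Only promoters of protein-coding genes were used for this, and here and below a region was counted once if any of its promoters matched. An AP-1 match was in 16 of the 61 (26.2%) and in 12 of the 180 (6.67%), against 5.18% of all 7551 regions. It was in 7.81% of all 32851 promoters of the table, a share that counts single promoters and also genes that are not protein-coding. The 16 included Tlr9, C3ar1, Havcr2 and Tnfsf13b. An ISRE match was in 10 of the 61 (16.4%) and in 2 of the 180 (1.11%), against 3.34% of all 7551 regions and 3.44% of the promoters of the table. The 10 included Ifit1bl1, Ifi203, Ifi205 and Tnfsf13b, the gene of the B cell cytokine BAFF. For NF-kB matches the shares were 9.84%, 2.78% and 4.28% (3.12% of the table), for PU.1 18%, 16.1% and 14.1% (13.6%) and for C/EBP 13.1%, 12.8% and 8.62% (10.8%). Few promoters stand behind the PL shares. When 1 library was left out, AP-1 was in 7 of 18 promoters higher in PL (without CL replicate 1), 4 of 17 (without CL replicate 2), 9 of 20 (without PL replicate 1) and 5 of 13 (without PL replicate 2), and ISRE was in 2, 0, 2 and 1 of the same promoters. Without both PT libraries, when more regions were called, AP-1 was in 20 of 141 promoters higher in PL (14.2%) and ISRE in 14 (9.93%). These shares have no test, and promoters held by no region were not examined.

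**Figure D4:**
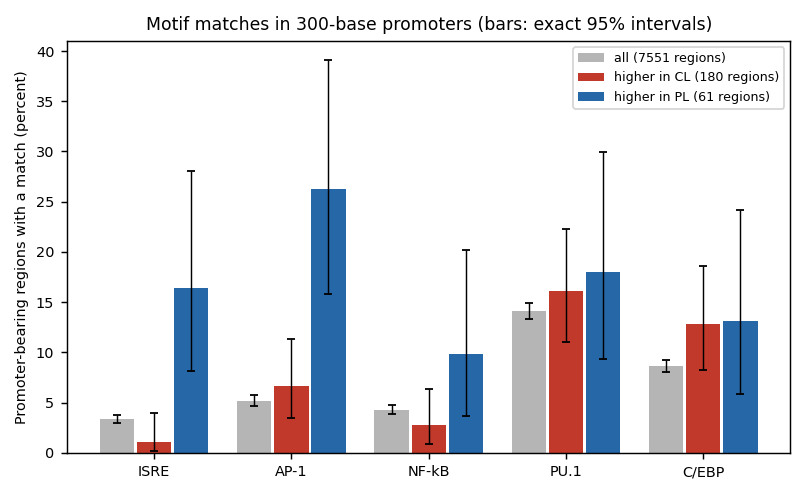
Share of promoter-bearing regions (y axis, percent) with a match to each motif (x axis), for all 7551 such regions (grey), the 180 higher in CL (red) and the 61 higher in PL (blue). Error bars are exact 95% binomial intervals and cover counting error only.

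Between CT and PT 33.4% of all regions were called, and between MC and MP 22.1%. The same ligand difference was then read between libraries that are in neither CL nor PL. These libraries enter the CL against PL calls through the shared estimate of the spread, but not the CL minus PL difference itself. Over all 53796 regions the CL minus PL difference correlated with CT minus PT (Pearson r = 0.638, Spearman rho = 0.564) and with MC minus MP (r = 0.610, rho = 0.512). The points are regions of the same table and are not independent replicates. Of the 2489 regions higher in CL, 94.1% were above 0 in CT minus PT and 68.6% were called higher there, against 18% of all regions. In MC minus MP 90.8% were above 0 and 58.7% were called higher, against 12.1% of all regions. Of the 2586 regions higher in PL, 95.5% were below 0 in CT minus PT and 70.1% were called lower, against 15.4% of all regions, and in MC minus MP 91.6% were below 0 and 55.8% were called lower, against 9.99%. Without PT replicate 1 the correlation with CT minus PT was r = 0.529 and without PT replicate 2 it was r = 0.696. The shares on the same side of 0 were then 90.4% and 95.5% for CL-higher regions and 90.3% and 97.6% for PL-higher regions. The number of all regions called between CT and PT changed strongly in these fits, so shares called there are not compared. Counting MP as 1 sample keeps its mean, so the shares above and below 0 could not change and give no check. Fewer regions were then called, in both sets and over all regions. The median size of the difference over all regions, without regard to sign, was 0.22 with LPS second, 0.35 with TNF second and 0.25 for a ligand alone. The TNF value was 0.45 without PT replicate 1 and 0.28 without PT replicate 2, and these sizes were not tested against each other.

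The median levels of the untreated and singly treated cells placed the 2 sets of regions differently. Regions higher in PL had a median level of 3.15 in MM, 3.30 in ML, 3.26 in MC and 4.02 in MP, so that only polyI:C alone stood out. Regions higher in CL had medians of 3.55 in MM, 3.74 in ML, 3.93 in MC and 3.20 in MP. Here CpG alone was the highest and polyI:C alone was below medium. Over all regions the same 4 medians were 3.68, 3.68, 3.71 and 3.72.

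**Figure D5:**
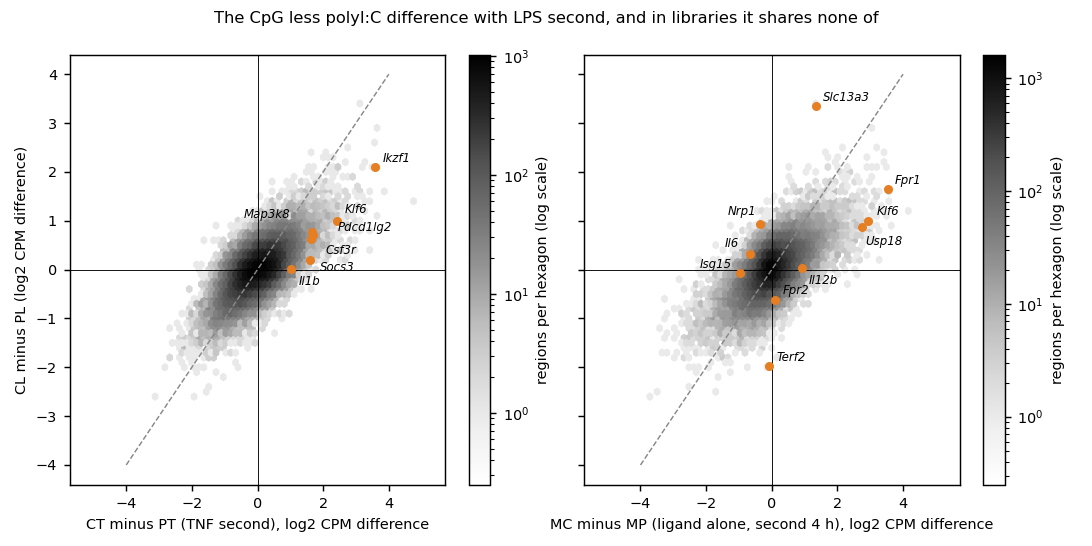
Hexagons count regions by their CL minus PL difference (y axis, log2 CPM) and their CT minus PT (left) or MC minus MP difference (right, x axes, log2 CPM), with darker hexagons holding more regions on a log scale. The dashed line marks equal differences, and orange points are named regions whose 2 differences were themselves called different.

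Few regions were called different in the size of the ligand effect itself, a comparison with a median SE of 0.29 against 0.205 for CL minus PL. CL minus PL was called different from CT minus PT at 462 regions (0.859%), higher at 85 (0.158%) and lower at 377 (0.701%). In the 377, the median difference was 0.19 with LPS second and 1.34 with TNF second. A lower difference with LPS is fixed by the call itself, so these medians are description only. Without regard to sign, the LPS difference was the smaller of the 2 at 361. In the 85 the medians were 0.33 and -0.87. This count moved most with single libraries, from 58 without CT replicate 2 and 59 without CL replicate 1 to 8887 without PT replicate 1. It was 82 without PL replicate 1, 122 without PL replicate 2, 139 without CL replicate 2, 150 without PT replicate 2 and 638 without CT replicate 1. CL minus PL was called different from MC minus MP at 1057 regions (1.96%), higher at 306 (0.569%) and lower at 751 (1.4%), and at 318 with MP counted as 1 sample. In the 751, where the direction is again fixed by the call, the median difference was 0.092 after LPS and 1.26 for the ligands alone. Without 1 of the 8 libraries it uses, this count was between 384 (without PL replicate 2) and 536 (without PL replicate 1), with 385 and 517 without CL replicates 1 and 2, 413 and 468 without MC replicates 1 and 2, and 422 and 438 without MP replicates 1 and 2. The most open Socs3 region was among those called lower against CT minus PT. It stood at 5.55 and 5.65 in CL and 5.41 and 5.40 in PL, a difference of 0.20, against 1.59 between CT and PT.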

How the data were processed

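For ATAC-seq, nuclei of 50000 cells were cut with transposase for 30 minutes at 37 °C and read as 50 bp reads, per the labels' protocols. The submitters' processing notes name featureCounts, MACS3 3.0.0b1, Picard, Bowtie2 2.2.5 and SAMtools 1.9, and the build mm10 (GRCm38). The values deposited by the authors are log2 CPM for 53796 regions of one length in 18 libraries. They were found to hold whole reads plus a prior of 3 reads (100% of values within 0.01 of a whole number), and low levels are therefore shrunk.

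The deposited log2 values were fitted with limma 3.58.1 (R 4.3.3, variance trend) over all 9 groups, with 9 residual degrees of freedom. P-values were adjusted over all regions with Benjamini-Hochberg, and a region was called at an adjusted p under 0.05. The code was tested on simulated data. Differences are CL minus PL on the log2 scale. Regions were assigned to protein-coding RefSeq genes within 50 kb of the gene body, which placed 48840 regions at 13802 of 21896 genes.

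Members and gene lists were chosen with earlier results of these data known. Named regions are the 10 largest called differences in each direction (groups not overlapping, higher mean at least 1, one region per gene), the 3 genes with the lowest p per list and direction, and the most open region of 26 response genes. The 10 largest were taken among regions assigned to a gene, without predicted genes and unnamed transcripts. Same-numbered CL and PL libraries did not deviate together (correlation -0.021, range over pairs of groups -0.358 to 0.242), so numbers are not shown to pair samples. Alternatives were quantile and median scaling, log2(CPM + 1), a filter on low levels, voom on recovered reads, other variance settings, a replicate block and leaving out libraries.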

Additional observations from a re-analysis of the deposited data

Results flagged for a closer look

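The size of the CpG against polyI:C difference was tested between conditions, and the regions named here are those where it was called different. With LPS against TNF as the second stimulus, 462 regions were called in all, a count that moved strongly with single libraries, as given above. For the named regions, only fits without a PT library are given. Among the named regions, Socs3, most open region, had a difference of 0.20 with LPS and 1.59 with TNF (-1.39 between them, limma adjusted p = 0.000291). Klf6 had 1.00 and 2.43 at its region at chr13:5828588-5829089 (-1.42, limma adjusted p = 0.00121), and Ikzf1 had 2.10 and 3.58 (-1.48, limma adjusted p = 0.0304). The cytokine gene Il1b had 0.0094 and 1.04 at its most open region (-1.03, limma adjusted p = 0.0148, and 0.0857 without PT replicate 2). The receptor gene Csf3r had 0.62 and 1.62 (-1.003, limma adjusted p = 0.0272, and 0.0608 without PT replicate 2). The checkpoint ligand Pdcd1lg2 had 0.71 and 1.68 (-0.97, limma adjusted p = 0.0483, and 0.204 without PT replicate 2). Map3k8 had 0.76 and 1.66 (-0.90, limma adjusted p = 0.0293). All 7 were called lower with LPS second, so that the TNF difference was the larger follows from the call.

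Against the ligands given alone, 1057 regions differed, and 318 did with MP counted as 1 sample. Klf6 had 1.00 after LPS and 2.92 for the ligands alone (-1.92, limma adjusted p = 4.28e-06), Fpr1 had 1.65 and 3.53 (-1.88, limma adjusted p = 0.000354), and the intragenic Usp18 region had 0.87 and 2.75 (-1.88, limma adjusted p = 0.00143). The most open Il12b region had 0.031 and 0.91 (-0.88, limma adjusted p = 0.00205). Nrp1 had opposite signs, 0.94 and -0.36 (1.30, limma adjusted p = 0.000811). These 5 were also called with MP as 1 sample. The other 5 were not. Slc13a3 had 3.35 and 1.34 (2.01, limma adjusted p = 0.0130, and 0.0539 with MP as 1 sample), and Terf2, a telomere-binding protein gene, had -1.98 and -0.079 (-1.90, limma adjusted p = 0.0206 and 0.0992). Il6 had 0.31 and -0.65 (0.96, limma adjusted p = 0.010 and 0.0642), Isg15 had -0.074 and -0.98 (0.91, limma adjusted p = 0.0477 and 0.181), and Fpr2 had -0.62 and 0.10 (-0.72, limma adjusted p = 0.0368 and 0.137).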

How the results depend on the processing

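The count of 5075 regions between CL and PL was 7671 after quantile normalization, 8159 with only the groups compared, 7527 without both PT libraries, 3098 once the 25% of regions with the lowest means was left out, and 1784 to 2241 with 1 library left out. Against CT minus PT the 462 became 834 after quantile normalization (31.4% higher, against 18.4%), 121 with no variance trend, 118 with only the groups compared, and 58 to 8887 with 1 library left out. Against MC minus MP the 1057 became 700 with no variance trend, 3199 with only the groups compared, 1620 with voom, 318 with MP as 1 sample (11% higher, against 29.0%), 2326 without both PT libraries, and 384 to 536 with 1 library left out. With a replicate block the 3 counts were 4921, 394 and 974, and with the PT numbers crossed the second was 515. The block ended the call of 1 of the 103 called named regions.

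Of these 103, calls lost were 0 under log2(CPM + 1), quantile normalization, voom, only the groups compared and without both PT libraries, 1 with robust variances, 2 after shifting to one median, 8 with no variance trend and 26 to 36 with 1 library left out. The filter kept 61 of the 103 and ended 2 calls. No called region reversed in these settings. Reversed signs were at most open regions that were not called. After shifting, Il1b was -0.025, Il12b -0.0039, Usp18 -0.029, Irak3 -0.020 and Myd88 -0.017, and after quantile normalization Usp18 was -0.011 and Myd88 -0.0084. With 1 library left out, the ranges were -0.035 to 0.054 for Il1b, -0.0036 to 0.065 for Il12b, -0.20 to 0.0015 for Cxcl10, -0.093 to 0.19 for Ccl5, -0.22 to 0.076 for Isg15, -0.014 to 0.025 for Usp18, -0.19 to 0.047 for Nfkbia, -0.15 to 0.31 for Tnfaip3, -0.047 to 0.076 for Irak3, -0.11 to 0.028 for Csf1r, -0.49 to 0.064 for Nos2 and -0.084 to 0.12 for Myd88.

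Motifs sought on one strand gave 1.71% (ISRE), 2.50% (NF-kB), 7.52% (PU.1) and 4.77% (C/EBP) of all promoter regions, 7.22% (PU.1) and 7.78% (C/EBP) of those higher in CL, and 6.56% (PU.1) of those higher in PL, which follows from searching fewer letters. Motifs in whole regions were not run, since no genome was used here. The cause of the other changes was not tested. With 2 libraries a group and a median of 52 to 66 reads per region in CL and PL, the median SE was 0.205, so small differences at weakly open regions were not detectable.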

Other observations

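Histone genes, chosen after their values were seen, were not among the lists above. Of 76 regions near 50 histone genes, 25 were called higher in CL and 1, near H1f2, higher in PL, against 4.63% and 4.81% of all regions, with a median difference of 0.40 against 0.012 over all regions. Their median level was 4.08 and 4.09 in the CL libraries and 3.83 and 3.65 in the PL libraries, so the groups did not overlap. In libraries of other groups, CT against PT had 32 higher and 0 lower (median 0.38, with 18% and 15.4% of all regions called), and MC against MP had 3 higher and 1 lower (median 0.070, with 12.1% and 9.99%). Set beside LPS alone, 41 were lower and 1 higher in PL (9.98% and 14.3% of all regions), and 5 were lower and 7 higher in CL (6.42% and 10.5%), in comparisons that share the ML libraries. Without 1 CL or PL library the 25 became 14 to 17 (15 without CL replicate 1, 16 without CL replicate 2, 17 without PL replicate 1 and 14 without PL replicate 2). Many histone genes, though not all of these, lie in clusters that hold near-identical copies, and reads of such copies may not be told apart.

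Several genes outside the lists had many regions on one side, and were also chosen after their values were seen. Sestd1 had 7 of 17, Apobec1 6 of 13, Frmd8 6 of 24 and Nubpl 5 of 10 regions higher in PL, each with 0 higher in CL, against 4.81% and 4.63% of all regions. Ggta1 had 6 of 14, Thada 6 of 18 and Fli1 5 of 15 higher in CL, each with 0 higher in PL. The median difference over the regions of Frmd8 was -0.60 with LPS second and 0.51 with TNF second, a difference that was not tested.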
